A study of Mus musculus with 9 samples.

Results

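Glycolysis, glucose uptake and lactate transport were followed through 33 listed genes, from the glucose transporters of the cell membrane to the enzymes and carriers that hand pyruvate to the mitochondrion. The genes were chosen by name, and 30 of the 33 matched a probe set with 1 gene symbol among the 22206 probe sets of the Clariom S mouse array, a microarray that reports 1 signal per gene. Each of the 30 had a single probe set, and Gpi1, Eno1 and Mpc2 were not analysed here. The RNA came from the brain of male mice, with 3 arrays in each of 3 groups. The ob/ob VE group (C57BL/6JHamSlc-ob/ob) was gavaged for 6 weeks (42 days) with VE, an extract of Vigna umbellata, in a dose of 100 mg/kg. The ob/ob vehicle group carried the same leptin-deficient genotype and received vehicle, and so did the wild-type group (C57BL/6JHamSlc-+/+). All mice were 6 weeks old when housing began, had 1 week to acclimatize and ate standard chow. The ob/ob mutation removes leptin from the whole animal and from birth, so its brains may differ from wild type through obesity as well as through genotype. The series' design text names white fat as the hybridized tissue and a second dose of 50 mg/kg, whereas the sample labels give brain and 100 mg/kg. Markers of neurons, astrocytes and oligodendrocytes were present on every array, with summed levels of 15.09 to 20.21 on the log2 scale. Nothing in the labels says whether each array is a separate mouse, so p-values measure the spread between arrays.

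Glucose enters the brain through facilitative transporters, is split by the glycolytic enzymes to pyruvate, and is then either reduced to lactate or carried into mitochondria and oxidized by the pyruvate dehydrogenase complex. Pyruvate dehydrogenase kinases switch that complex off by phosphorylation. Astrocytes are known for high glycolysis and lactate release, and neurons for lactate uptake and oxidation. In bulk brain RNA, fewer cells of a type and less RNA per cell cannot be told apart.

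All values below are log2 signals as deposited, so a difference of 1 is a 2-fold difference in signal, and levels of different genes are not set against each other. Differences were tested with limma over all 22206 probe sets, and a gene was called at a Benjamini-Hochberg adjusted p under 0.05. VE array 2 stood apart: its correlations with the other arrays were 0.962 to 0.97, its SD over probe sets was 2.38 and its highest signal 16.37, whereas the highest signals of the other 8 arrays were 19.01 to 19.93. Bright genes tended to read low on that array, so a difference that includes the VE group is also given without it where that changed its sign or moved it by over 1.5 times. Bright probe sets also read lower in ob/ob vehicle brain than in wild type, with a median difference of -0.37 in the brightest of 20 level bins, a trend that quantile normalization (forcing all arrays to a common distribution) took to -0.01.

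Pdk2, a kinase that phosphorylates and inactivates pyruvate dehydrogenase, was the 1 member called in ob/ob vehicle brain against wild type, and it was lower. Its signals were 11.83, 11.39 and 11.07 in ob/ob vehicle brain, against 12.79, 12.67 and 12.45 in wild type. The groups did not overlap. The difference was -1.21 (SE 0.233, limma adjusted p 0.0366, n = 3 per group), a 2.31-fold lower signal. The call of 1 in 30 members stood beside 1.27% of all probe sets in either direction and 0.73% of all probe sets called lower. By the authors' rule, which asks for a fold over 1.1 at an unadjusted p under 0.05, 7 members were lower (Pgam1, Bpgm, Eno2, Ldhb, Pdhb, Pdk2 and Slc16a7), against 10.2% of all probe sets, and none was higher. With VE, Pdk2 read 11.56, 11.24 and 11.11, all within the range of ob/ob vehicle brain, and VE minus ob/ob vehicle was -0.13 (95% interval -0.63 to 0.38). VE minus wild type was -1.33 (SE 0.233, limma adjusted p 0.0587), again with no overlap. With VE array 2 left out that difference was -1.30 and passed the test (limma adjusted p 0.0316), as the 1 member among 0.329% of all probe sets. Over the 3 groups Pdk2 was also the 1 member past the moderated F test (F 19.9, limma adjusted p 0.0318), which 1.07% of all probe sets passed. After quantile normalization the ob/ob vehicle difference was -0.90 and narrowly missed the threshold (limma adjusted p 0.0504), so no member was called, against 2.84% of all probe sets. The call was also lost without VE array 3 and without any array of ob/ob vehicle or wild type, and limma adjusted p spanned 0.0016 to 0.196 over 19 settings. Among the 200 probe sets nearest to Pdk2 in mean level, the median difference was -0.34 and 3.5% had a lower one.

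**Figure D1:**
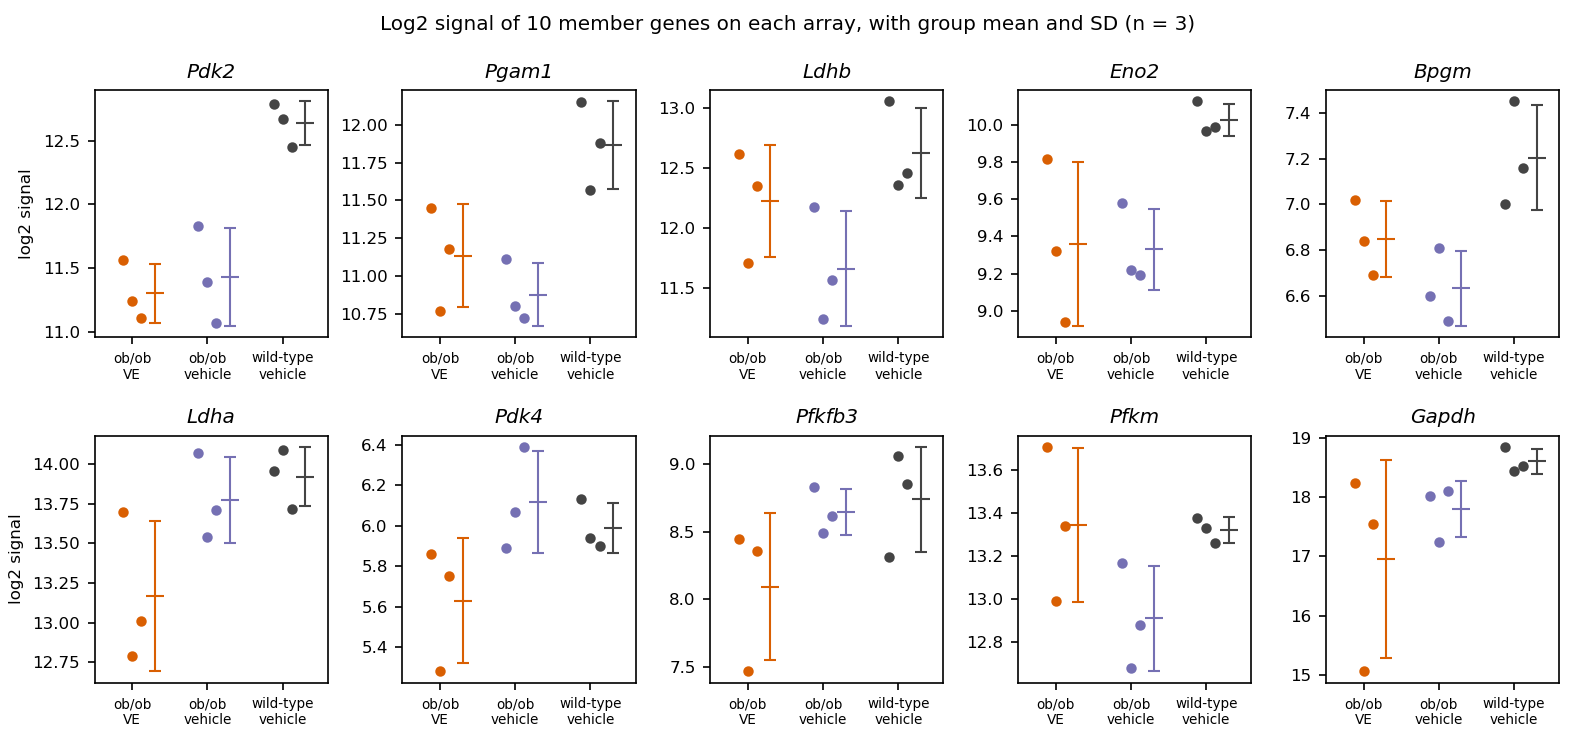
Log2 signal (vertical axes, each with its own range) of 10 member genes on each array, in ob/ob VE, ob/ob vehicle and wild-type vehicle brain, with points for arrays and a bar for the group mean with SD (n = 3). Pdk2 read 11.07 to 11.83 on the 6 ob/ob arrays and 12.45 to 12.79 in wild type, and VE array 2, the middle VE point of each panel, was the lowest point of Gapdh at 15.06.

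The other pyruvate dehydrogenase kinases did not pass the test. Pdk1 read 10.17, 9.67 and 10.06 in ob/ob vehicle brain against 10.68, 10.31 and 10.46 in wild type, with no overlap (difference -0.52, SE 0.302). Pdk3 averaged 7.37 ± 0.211 against 7.83 ± 0.214 (SD, n = 3 each), also with no overlap, the nearest arrays being 0.03 apart. Such a separation below wild type held for 17.5% of all probe sets and 34.5% of those in the members' level bins. Pdk4, known as the kinase that rises with fasting and fat oxidation in muscle and liver, averaged 6.12 in ob/ob vehicle brain and 5.99 in wild type, and the groups overlapped. Under VE, Pdk4 read 5.86, 5.28 and 5.75 against 5.89, 6.07 and 6.39 in ob/ob vehicle brain. No Pdk4 value of the VE group reached the lowest ob/ob vehicle value, by a margin of 0.03 (difference -0.49, SE 0.221, limma adjusted p 0.364). The Pdk4 difference was -0.31 with VE array 2 left out, and after quantile normalization of all arrays the groups overlapped.

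The subunits of the complex that these kinases switch off had differences of -0.40 to -0.57 between ob/ob vehicle and wild type, none past the test. Pdhb, the E1 beta subunit, read 14.02, 13.50 and 13.83 in ob/ob vehicle brain against 14.39, 14.32 and 14.36 in wild type (difference -0.57, SE 0.257, limma adjusted p 0.235). Pdha1, the catalytic E1 alpha subunit, had a difference of -0.40 and Dlat, the E2 acetyltransferase, of -0.41. All 3 subunits lay below wild type without overlap as deposited, as did 17.5% of all probe sets and 34.5% of those in the members' level bins. Pdhb alone did after quantile normalization (15.1% of all). Dlat read 12.67, 11.34 and 12.62 under VE, against 12.07, 12.01 and 11.91 in ob/ob vehicle brain. VE arrays 1 and 3 were thus above every ob/ob vehicle and wild-type array for Dlat, and VE array 2 below every one. Pdk1 had the same order, with 10.83, 9.56 and 10.69 under VE. Without VE array 2 the differences of VE from ob/ob vehicle were 0.65 for Dlat and 0.79 for Pdk1 (limma adjusted p 0.0796 and 0.0647).

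Promoter sequences are shown for Pdk2, for Pgam1, which had the next smallest p, and for the lactate dehydrogenase genes Ldhb and Ldha, whose differences were of unequal size. They are RefSeq sequences on GRCm38.p6 from 250 bases before to 50 bases after the start of each gene, for the most upstream start listed where there were several, written 5′ to 3′ on the gene's strand. Capitals mark the hypoxia response core, ACGTG or GCGTG on either strand.
Pdk2 (chr11:95041322-95041621, minus strand): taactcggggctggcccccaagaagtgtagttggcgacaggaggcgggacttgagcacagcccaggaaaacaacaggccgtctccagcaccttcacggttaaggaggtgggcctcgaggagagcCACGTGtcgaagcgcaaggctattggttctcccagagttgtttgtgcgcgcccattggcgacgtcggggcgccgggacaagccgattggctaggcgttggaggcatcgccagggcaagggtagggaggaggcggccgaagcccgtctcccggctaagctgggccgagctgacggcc
Pgam1 (chr19:41911621-41911920, plus strand): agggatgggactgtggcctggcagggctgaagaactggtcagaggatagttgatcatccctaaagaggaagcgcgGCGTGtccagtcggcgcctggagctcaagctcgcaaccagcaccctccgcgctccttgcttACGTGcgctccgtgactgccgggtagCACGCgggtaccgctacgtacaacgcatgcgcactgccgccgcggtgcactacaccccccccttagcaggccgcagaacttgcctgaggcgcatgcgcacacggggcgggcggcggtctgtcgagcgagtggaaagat
Ldhb (chr6:142507908-142508207, minus strand): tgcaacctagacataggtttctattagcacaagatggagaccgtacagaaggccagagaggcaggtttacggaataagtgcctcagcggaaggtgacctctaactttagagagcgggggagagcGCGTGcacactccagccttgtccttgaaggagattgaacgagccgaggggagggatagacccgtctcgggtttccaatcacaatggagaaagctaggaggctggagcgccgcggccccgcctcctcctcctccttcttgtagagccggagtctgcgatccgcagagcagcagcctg
Ldha (chr7:46845554-46845853, plus strand): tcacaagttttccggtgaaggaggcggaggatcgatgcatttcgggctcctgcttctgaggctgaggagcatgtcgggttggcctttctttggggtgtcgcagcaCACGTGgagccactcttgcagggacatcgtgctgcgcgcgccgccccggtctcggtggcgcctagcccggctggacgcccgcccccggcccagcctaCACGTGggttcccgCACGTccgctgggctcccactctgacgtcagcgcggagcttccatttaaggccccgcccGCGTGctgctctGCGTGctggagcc

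Ldha held 7 core matches, Pgam1 3, Pdk2 2 and Ldhb 1. The 2 of Pdk2 are a single palindromic CACGTG, the E-box, read on both strands. Likewise, the 7 of Ldha include 2 E-boxes, each counted on both strands. The other listed promoter of Pdk2 held 0 matches and that of Ldha 2. Of the 30 measured members, 28 had promoters in the RefSeq table, Slc2a3 and Slc16a7 being the other two. The core stood in 30 of their 41 promoters (73.2%), against 43.8% of all 32851 promoters, and in 24 of the 28 genes (85.7%) against 46.7% of all genes. Bpgm, Dlat, Eno2 and Tpi1 were the 4 without it. The E-box CACGTG, which overlaps the core, was in 5 of the 28 genes (17.9%, against 8.09% of all genes), and the GC box GGGCGG in 20 (71.4%, against 38.2%). Members' promoters were richer in G and C, with a median of 62% against 52.7%, and all of these motifs are rich in G and C. A match is a string of letters and was not set against binding data.

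The payoff steps, which turn triose phosphate into pyruvate with a gain of ATP, were listed together with Bpgm, which is not itself such a step. The 6 measured genes of this list had differences of -0.99 to -0.40 between ob/ob vehicle and wild type. None was called (3, Bpgm among them, at an unadjusted p under 0.05 by limma, against 20.1% of all probe sets). Pgam1, phosphoglycerate mutase, read 11.11, 10.8 and 10.72 in ob/ob vehicle brain against 12.15, 11.57 and 11.88 in wild type. The groups were 0.46 apart at their nearest, and the difference was -0.99 (SE 0.237, limma adjusted p 0.0595). It crossed the threshold with the trend with level removed (-0.72, limma adjusted p 0.0497) and missed it after quantile normalization (-0.71, limma adjusted p 0.0591). Under VE, Pgam1 read 11.45, 10.77 and 11.18, overlapping ob/ob vehicle brain (difference 0.26, SE 0.237, and 0.44 without VE array 2) and lying below all wild-type arrays (difference -0.73, limma adjusted p 0.245).

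Eno2, the neuronal enolase, read 9.58, 9.22 and 9.19 in ob/ob vehicle brain, against 10.13, 9.97 and 9.99 in wild type. Its groups did not overlap (difference -0.70, SE 0.238, limma adjusted p 0.136). Under VE it read 9.82, 9.32 and 8.94, below wild type as well (difference -0.67, limma adjusted p 0.285). Bpgm, which makes 2,3-bisphosphoglycerate and is best known from red blood cells, read 6.60, 6.81 and 6.49 in ob/ob vehicle brain against 7.0, 7.45 and 7.16 in wild type (difference -0.57, SE 0.205, limma adjusted p 0.151). Bpgm lies at a level where most probe sets had the opposite sign: the 200 nearest had a median difference of 0.16, and 5.5% of them a lower one than Bpgm. Its values under VE were 7.02, 6.84 and 6.69, between the other groups and overlapping both. After quantile normalization the ob/ob vehicle difference of Bpgm was -0.66 (limma adjusted p 0.0821).

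Gapdh, the glyceraldehyde phosphate dehydrogenase often used as a loading control, was among the brightest probe sets. It read 18.02, 17.25 and 18.11 in ob/ob vehicle brain against 18.85, 18.45 and 18.53 in wild type, with no overlap (difference -0.82, SE 0.587, limma adjusted p 0.456). Under VE it read 18.24, 15.06 and 17.55, and the VE minus wild type difference was -1.66 (SE 0.587, limma adjusted p 0.285). VE array 2 decided the size of that value, which was -0.72 without it. By rank within an array, where 1 is the brightest, Gapdh stood at 61, 64 and 76 in VE, at 72, 77 and 66 in ob/ob vehicle and at 42, 60 and 52 in wild type. The Gapdh rank on VE array 2 was thus inside the range of the other VE arrays although its level was far below. Every ob/ob array ranked Gapdh lower than every wild-type array. Pkm, pyruvate kinase, and Pgk1, phosphoglycerate kinase, had differences of -0.46 and -0.40 between ob/ob vehicle and wild type and of -0.04 and -0.06 after quantile normalization.

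**Figure D2:**
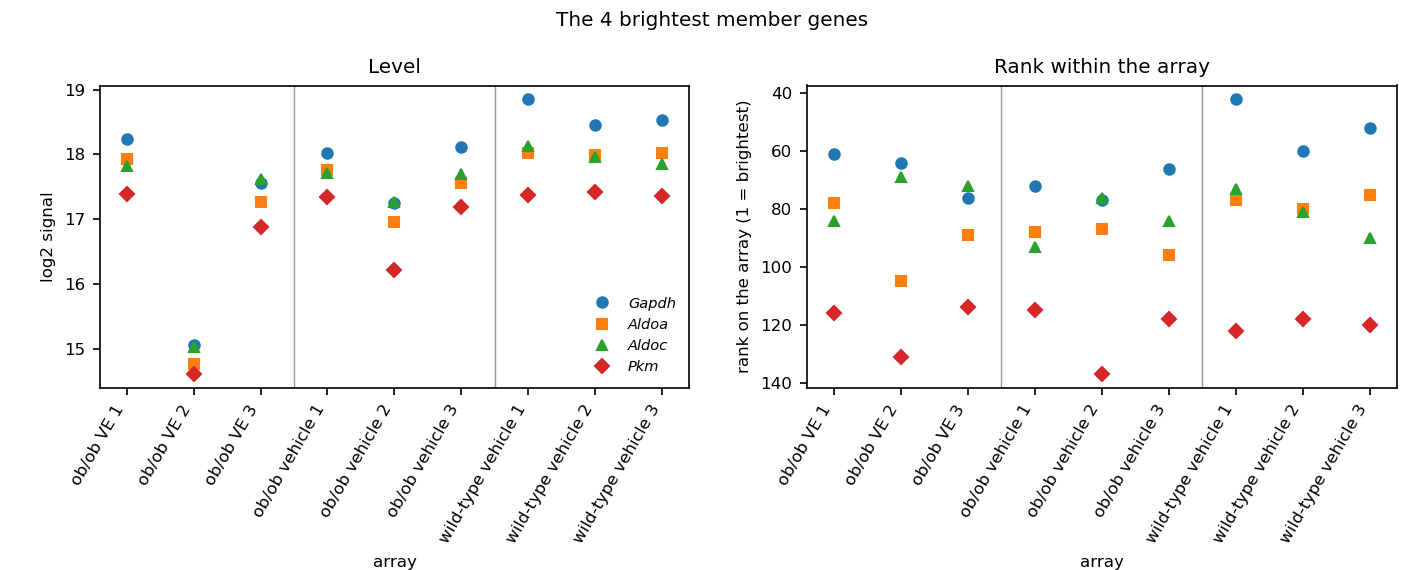
Level (left, log2 signal) and rank within the array (right, 1 = brightest, axis inverted) of Gapdh, Aldoa, Aldoc and Pkm on the 9 arrays, with a point for each gene and array. On VE array 2 all 4 genes read 14.61 to 15.06, where Gapdh ranked 64, Aldoc 69, Aldoa 105 and Pkm 131. Of these ranks, Gapdh's and Pkm's lay within those of the other 8 arrays, Aldoc's was brighter (72 to 93 elsewhere) and Aldoa's dimmer (75 to 96 elsewhere).

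Further up the pathway, 4 of the 11 measured genes read lower in every ob/ob vehicle array than in any wild-type array, a share near the 34.5% of probe sets in the members' level bins, and none was called. Slc2a1, the glucose transporter of brain endothelium and astrocytes, differed by -0.30 between ob/ob vehicle and wild type, and Slc2a3, the neuronal transporter, by -0.21, each with overlap. After quantile normalization these were -0.03 and 0.00. Slc2a1 read 11.75, 10.79 and 11.60 under VE against 11.61, 11.00 and 11.51 in ob/ob vehicle brain, a difference of 0.01 with a 95% interval of -0.56 to 0.58, and of 0.30 without VE array 2. Hk1, the hexokinase of most brain cells, differed by -0.06 between ob/ob vehicle and wild type. Hk2, the insulin-responsive hexokinase of muscle and fat, was the 1 member whose ob/ob vehicle arrays all lay above wild type, at 4.57, 4.59 and 5.14 against 4.38, 4.44 and 4.52 (difference 0.32, limma adjusted p 0.534). At that low level the nearest 200 probe sets had a median of 0.20.

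Of the phosphofructokinase genes, Pfkm, the muscle-type subunit, read 13.71, 12.99 and 13.34 under VE, against 13.17, 12.68 and 12.88 in ob/ob vehicle brain and 13.38, 13.33 and 13.26 in wild type. The VE minus ob/ob vehicle difference was 0.44 (SE 0.226, limma adjusted p 0.436) with overlap, and 0.57 with no overlap after quantile normalization. Pfkl, the liver-type subunit, differed by -0.08 and Pfkp, the platelet-type subunit, by -0.12 in the same comparison, with overlap. Both changed sign without VE array 2, to 0.01 for Pfkl and 0.24 for Pfkp, beside 0.62 for Pfkm. Pfkfb3, which makes the activator fructose 2,6-bisphosphate and is known for astrocyte glycolysis, read 8.45, 7.47 and 8.36 under VE against 8.83, 8.49 and 8.62 in ob/ob vehicle brain. No VE array reached the ob/ob vehicle range, by a margin of 0.04 (difference -0.55, SE 0.282, limma adjusted p 0.426). The Pfkfb3 difference was -0.24 without VE array 2. Among the aldolases and the triose isomerase, Aldoa, Aldoc (the astrocyte aldolase) and Tpi1 differed by -0.59, -0.42 and -0.49 between ob/ob vehicle and wild type, with no overlap. Of these 3, Aldoa alone was without overlap after quantile normalization, at -0.20.

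The lactate dehydrogenase genes had differences of unequal size. Ldhb encodes the subunit favoured by neurons and heart, known for turning lactate to pyruvate, and Ldha the subunit of glycolytic tissue. Ldhb read 12.18, 11.24 and 11.57 in ob/ob vehicle brain against 13.06, 12.36 and 12.46 in wild type, with no overlap (difference -0.96, SE 0.302, limma adjusted p 0.111). Ldha read 14.07, 13.54 and 13.71 in ob/ob vehicle brain against 13.96, 14.09 and 13.72 in wild type, with overlap (difference -0.15, SE 0.255). Under VE, Ldhb read 12.62, 11.71 and 12.35 and Ldha 13.70, 12.79 and 13.01. VE minus ob/ob vehicle was 0.56 for Ldhb (SE 0.302, limma adjusted p 0.456) and -0.61 for Ldha (SE 0.255, limma adjusted p 0.321), of opposite sign and neither called. Without VE array 2 these were 0.82 and -0.42. VE minus wild type was -0.76 for Ldha (SE 0.255, limma adjusted p 0.258), with the nearest arrays 0.02 apart. After quantile normalization that difference was -0.29 and the groups overlapped.

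Differences between 2 genes within an array are less exposed to an array's overall brightness, so 8 isoenzyme pairs were compared in this way after the values had been seen. Ldhb minus Ldha was -1.08, -1.08 and -0.66 under VE, -1.89, -2.30 and -2.14 in ob/ob vehicle brain and -0.90, -1.73 and -1.26 in wild type. All ob/ob vehicle arrays lay below all arrays of both other groups. The shift was 1.17 (SE 0.184) for VE minus ob/ob vehicle and -0.81 (SE 0.268) for ob/ob vehicle minus wild type. After quantile normalization these were 1.13 and -0.88. As deposited, VE array 2 equalled VE array 1 in this difference. Each had an exact two-sided permutation p of 0.1, the smallest that 3 arrays against 3 allow, and a Benjamini-Hochberg value of 0.218 over the 24 tests. The shifts share the ob/ob vehicle arrays. Pfkm minus Pfkp had the same order of groups, with 0.89, 1.49 and 1.01 under VE, 0.68, 0.52 and 0.52 in ob/ob vehicle brain and 0.95, 1.20 and 0.98 in wild type. Pfkm minus Pfkl separated VE (2.39, 2.03 and 2.19) from ob/ob vehicle (1.87, 1.73 and 1.46) and from wild type (1.99, 1.46 and 1.72). Pdk2 minus Pdk3 was 3.63 to 3.90 under VE, 3.93 to 4.28 in ob/ob vehicle brain and 4.71 to 4.87 in wild type, and VE and ob/ob vehicle overlapped after quantile normalization. For ob/ob vehicle minus wild type the shift of this pair was -0.75 as deposited and -0.43 after quantile normalization. Pdk2 minus Pdk1 was lower without overlap on the ob/ob vehicle arrays (1.01 to 1.72) than on the wild-type arrays (1.99 to 2.36). Under VE this pair was at 0.42 to 1.68, also below wild type without overlap. How often other gene pairs separate 3 arrays from 3 was not counted. Slc2a3 minus Slc2a1, Slc16a7 minus Slc16a1 and Aldoc minus Aldoa overlapped in all 3 comparisons.

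**Figure D3:**
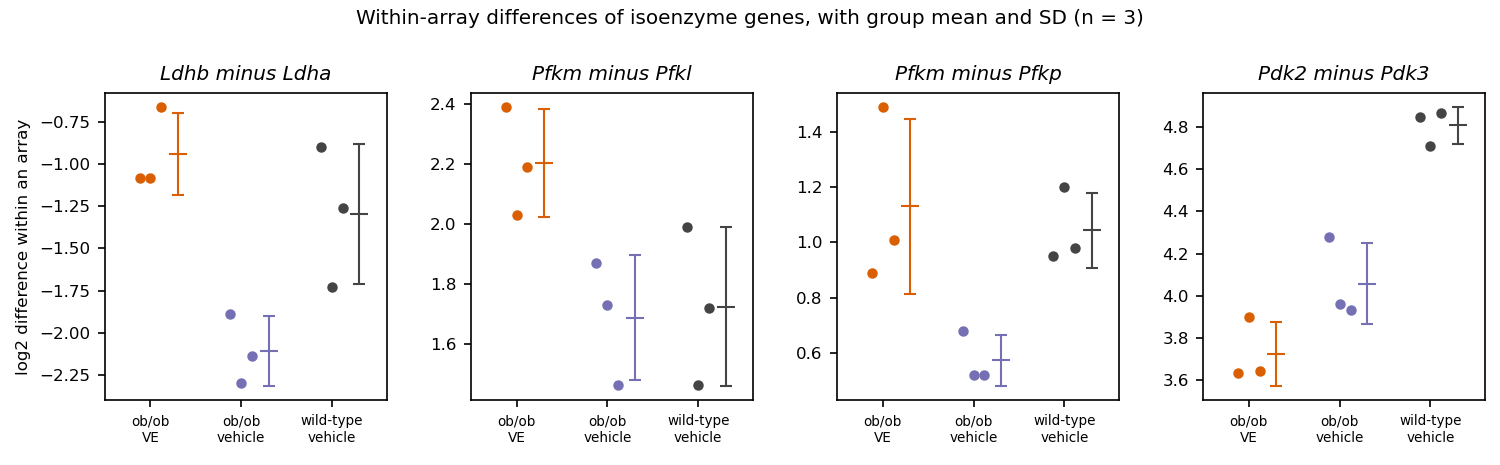
Difference in log2 signal within each array for 4 isoenzyme pairs (vertical axes, each with its own range), in ob/ob VE, ob/ob vehicle and wild-type vehicle brain, with points for arrays and bars for the mean and SD (n = 3). Ldhb minus Ldha lay at -1.08 to -0.66 under VE and at -2.30 to -1.89 in ob/ob vehicle brain. The vertical position of a pair has no meaning in itself, since its 2 probe sets have different brightness.

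Of the lactate and pyruvate carriers, Slc16a7 (the high-affinity neuronal carrier MCT2) read 10.53, 10.11 and 10.35 in ob/ob vehicle brain against 11.19, 10.61 and 11.07 in wild type. The nearest arrays were 0.08 apart (difference -0.63, SE 0.244, limma adjusted p 0.177). Under VE it read 10.65, 10.13 and 10.85. Slc16a1 (MCT1, of endothelium, astrocytes and oligodendrocytes) differed by -0.36 between ob/ob vehicle and wild type and Slc16a3 (MCT4, of astrocytes) by 0.04, both with overlap. Mpc1, a subunit of the mitochondrial pyruvate carrier, differed by -0.29 with overlap.

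Taken over the 30 members, 26 had a difference below 0 between ob/ob vehicle and wild type, against 48.6% of all probe sets. Most members are bright, and in the brightest 5 of the 20 level bins it was 22 of 23 members against 80.1%. After quantile normalization 24 were below 0, against 50.9%. The members' median was -0.41, that of all probe sets 0.02 and that of the same level bins -0.31. Each member set against its own bin gave a median of -0.11. After quantile normalization the members' median was -0.11. Of the members, 17 lay without overlap below wild type (17.5% of all probe sets, 34.5% in the same level bins), and Hk2 was the 1 above (15.8%). After quantile normalization 12 lay below (15.1% of all, 17% in the same level bins) and Hk1 and Pfkp above (13.8%). The 12 were Pfkm, Aldoa, Gapdh, Pgam1, Bpgm, Eno2, Ldhb, Pdhb, Pdk1, Pdk2, Pdk3 and Slc16a7. Without VE array 2, which enters the error estimate common to the 3 groups, 6 members passed the test in this comparison, namely Gapdh, Pgam1, Eno2, Ldhb, Pdk2 and Slc16a7 (13.4% of all probe sets).

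**Figure D4:**
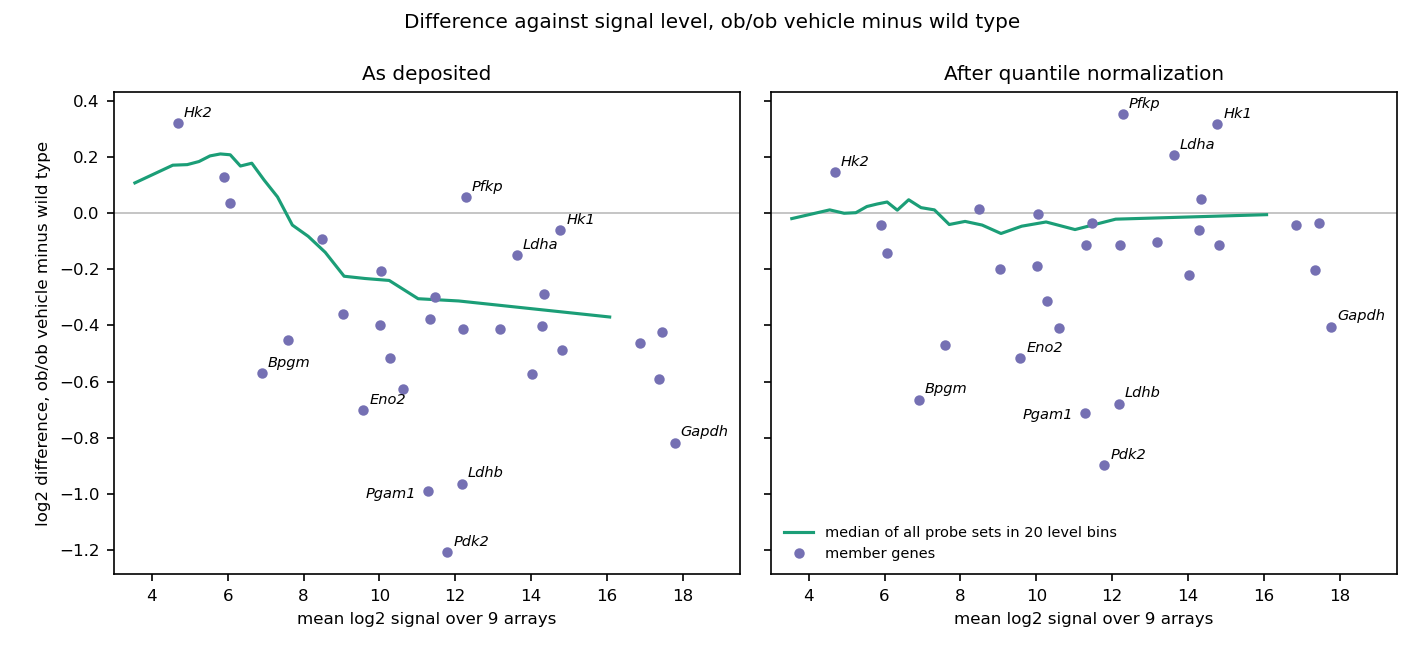
Difference in log2 signal between ob/ob vehicle and wild-type brain (vertical axis) against the mean log2 signal over 9 arrays (horizontal axis), as deposited (left) and after quantile normalization (right), with points for the 30 members and a line for the median of all probe sets in 20 level bins. As deposited the line falls to -0.37 in the brightest bin. After quantile normalization it runs near 0 and Pdk2 (-0.90), Pgam1 (-0.71), Ldhb (-0.68) and Bpgm (-0.66) lie lowest.

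In VE against ob/ob vehicle brain, 0 of the 30 members were called by limma (0.486% of all probe sets), and 2, Ldha and Pdk4, met the authors' rule and had an unadjusted p under 0.05, both lower (10.1%). With limma's array weights, which weight arrays by their fit, 5 were called (14.9%). The members' median was 0.02, that of all probe sets -0.07, and 14 of 30 were below 0 (58% of all), among them 11 of the 23 in the brightest 5 level bins (55%). With VE array 2 left out, 6 of 30 were below 0 (51.3% of all), or 3 of the 23 bright members (26.4%), and the median was 0.20, that of the members' level bins being 0.20 as well. After quantile normalization of all arrays 9 were below 0 (47.2%). Pfkfb3 and Pdk4 lay without overlap below ob/ob vehicle (11.9% of all), and no member above (4.62%). After quantile normalization the members without overlap were Pfkfb3 and Ldha below (10.1% of all) and Pfkm, Pgam1, Ldhb, Pdha1, Pdhb and Slc16a7 above (10.2%). Quantile-normalized differences of those 6 ran between 0.26 (Slc16a7) and 0.63 (Ldhb) for VE minus ob/ob vehicle, and between -0.71 (Pgam1) and -0.11 (Pfkm) for ob/ob vehicle minus wild type. Both sets of values use the same ob/ob vehicle arrays.

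In VE-treated ob/ob brain against wild type, 0 of 30 members were called by limma (0.0991% of all probe sets), 7 met the authors' rule and had an unadjusted p under 0.05 (9.21%), and array weights called 9 (14.8%). Those 7 were Pfkfb3, Aldoa, Gapdh, Pgam1, Eno2, Ldha and Pdk2, each lower under VE. Below 0 were 27 of 30 as deposited (58.8% of all), with 22 of the 23 in the brightest 5 level bins (85.5%). Without VE array 2 it was 22 of 30 (49.9%), and after quantile normalization 15 (49.3%). The median was -0.41 as deposited, -0.21 without VE array 2 and -0.02 after quantile normalization, against -0.07, 0.00 and 0.01 for all probe sets. In the members' level bins the median was -0.33 as deposited. As deposited, 10 members lay without overlap below wild type (11.5% of all probe sets, 21.7% in the same level bins). After quantile normalization 5 did, namely Gapdh, Pgam1, Eno2, Pdk2 and Pdk4 (7.97%), with Pfkm above (7.97%). Counted by array, the members below the whole wild-type range numbered 10, 28 and 20 on VE arrays 1 to 3 and 20, 25 and 22 on ob/ob vehicle arrays 1 to 3. Among all probe sets the shares were 25.8%, 51.8% and 30.3% on the VE arrays and 28.3%, 37.2% and 34.7% on the ob/ob vehicle arrays. In the brightest 5 level bins, which hold 23 of the members, they were 27.5%, 88.7% and 48.5% under VE and 44.5%, 72.6% and 64.5% in ob/ob vehicle brain. After quantile normalization the members numbered 7, 14 and 14 under VE and 17, 20 and 14 in ob/ob vehicle brain, beside 26%, 37.6% and 27.9% and 30.9%, 33.4% and 34.7% of all probe sets.

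**Figure D5:**
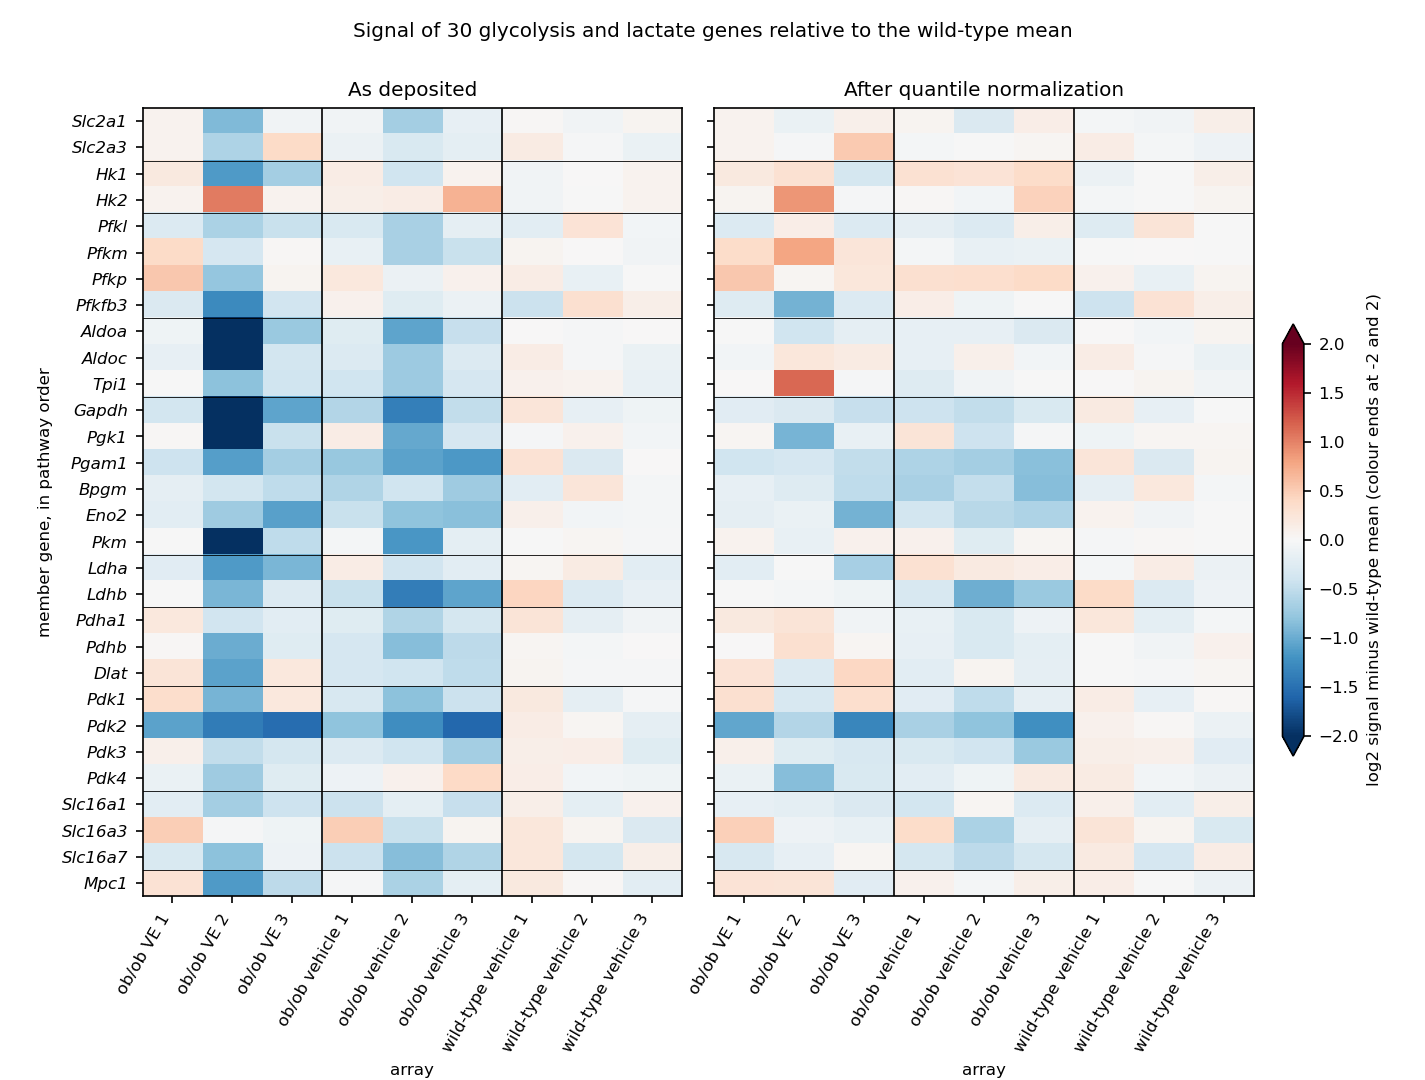
Log2 signal of the 30 measured members minus the wild-type mean, in pathway order down the page and by array across (ob/ob VE, ob/ob vehicle, wild-type vehicle), as deposited (left) and after quantile normalization (right), with colours ending at -2 and 2. VE array 2 has 28 members below the wild-type range as deposited and 14 after quantile normalization, and the Pdk2 row is lower on all 6 ob/ob arrays in both panels.

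Beside the members, 130 genes of 10 neighbouring pathways were listed, 120 of them measured. In ob/ob vehicle brain against wild type 2 of the 120 were called, both lower, against the 1.27% of all probe sets given above. Without VE array 2, 19 were called (13.4%). Mdh2, the mitochondrial malate dehydrogenase of the malate-aspartate shuttle, averaged 11.45 against 12.56 (difference -1.12, SE 0.209, limma adjusted p 0.0366), and -0.83 after quantile normalization (limma adjusted p 0.0989). Epas1, which encodes the oxygen-sensitive factor HIF-2 alpha, averaged 9.08 against 10.11 (difference -1.04, SE 0.189, limma adjusted p 0.0345) and passed after quantile normalization (-0.85, limma adjusted p 0.0243). Got1, the cytosolic aspartate aminotransferase of the same shuttle as Mdh2, differed by -1.19 (limma adjusted p 0.066). Bsg, the basigin chaperone that brings MCT1 and MCT4 to the membrane, differed by -1.35 (limma adjusted p 0.0946) and passed after quantile normalization (-0.85, limma adjusted p 0.0422). Ppp1r3c, which targets phosphatase to glycogen, differed by -1.28 (limma adjusted p 0.0719).

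By pathway, the tricarboxylic acid cycle had 12 of 14 measured genes below 0 with a median of -0.52 (none called, 8 at an unadjusted p under 0.05 by limma, against 20.1% of all probe sets), and -0.22 after quantile normalization. Ogdh and Sdhd had its smallest p, with differences of -0.81 and -0.80. Glycogen metabolism had 16 of 18 below 0 (median -0.30, and -0.19 after quantile normalization). The malate-aspartate and glycerol phosphate shuttles had 8 of 10 (median -0.31, and 0.01 after quantile normalization). The other isoenzymes of glycolysis, most of them genes of liver, muscle or testis, had 3 of 12 below 0 (median 0.23, and 0.05 after quantile normalization). Slc2a2, the glucose transporter of liver and pancreatic islets, was higher without overlap in ob/ob vehicle brain (difference 0.84, SE 0.246, limma adjusted p 0.0949). The pentose phosphate pathway had 4 of 6 below 0. Beside these counts, 48.6% of all probe sets were below 0, and 80.1% of those in the brightest 5 level bins. The median of all probe sets was -0.37 in the brightest level bin and reached 0.21 among the dim bins. The part of signal level in the pathway values was not tested. In VE against ob/ob vehicle and in VE against wild type 0 of 120 were called by limma, with 12 (13.3% of all probe sets) and 19 (12.2%) at an unadjusted p under 0.05. The smallest p of VE against ob/ob vehicle were those of Myc, a growth transcription factor (difference -1.08, SE 0.257, limma adjusted p 0.0824), and Vegfa, a hypoxia-inducible vessel growth factor (-0.89, SE 0.246, limma adjusted p 0.123).

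Levels of cell type markers differed between the groups as well. In ob/ob vehicle brain against wild type, all 6 neuronal (0 called, 3 at an unadjusted p under 0.05 by limma), 6 astrocyte, 5 oligodendrocyte and 5 microglial (0 called, 3 at an unadjusted p under 0.05) markers measured had differences below 0. So had 48.6% of all probe sets, and 80.1% of those in the brightest 5 level bins. An unadjusted p under 0.05 by limma was found for 20.1% of all probe sets. Gfap and Aqp4 of astrocytes, Cldn11 of oligodendrocytes, and Folr1 and Kl of the choroid plexus were called lower. These were 5 of the 42 markers measured, against 0.73% of all probe sets called lower. After quantile normalization Gfap and Aqp4 missed the threshold (limma adjusted p 0.109 and 0.121), the other 3 passed, and the microglial Cx3cr1 and Csf1r passed as well (limma adjusted p 0.0357 and 0.0419). Of all probe sets, 2.84% passed after quantile normalization. Without VE array 2, 17 of the 42 markers measured were called (13.4% of all probe sets). Summed levels on the log2 scale were 18.85 to 19.83 in ob/ob vehicle brain against 19.83 to 20.21 in wild type for neurons. For astrocytes they were 16.87 to 17.90 against 17.75 to 17.91, and for oligodendrocytes 16.70 to 17.92 against 18.50 to 18.75. Choroid plexus markers summed to 15.14 to 19.31 against 19.28 to 19.88, and microglial markers to 10.78 to 11.21 against 11.48 to 11.80. These sums are as deposited and are set mostly by the brightest genes of a list. In ob/ob vehicle brain Ttr alone read 19.31, 15.1 and 18.24, and the oligodendrocyte Mbp 17.87, 16.6 and 17.64. The endothelial list, of which 5 of 6 were below 0, summed to 11.75 to 12.17 against 12.26 to 12.39. The 2 measured red blood cell markers, neither of them called, summed to 8.73 to 9.01 against 7.85 to 8.56. Slc4a1 differed by 0.83 without overlap (limma adjusted p 0.0856) and Alas2 by 0.30 with overlap, and the 6 muscle markers summed to 9.87 to 10.40 against 9.55 to 9.66. The part of these cell types in the values of Pdk2, Pgam1, Ldhb and the other members was not tested. In VE against ob/ob vehicle brain 0 of the 42 measured markers were called by limma (0.486% of all probe sets), with 7 at an unadjusted p under 0.05 (13.3%). The endothelial Cldn5 passed after quantile normalization (difference 0.95, limma adjusted p 0.038), as did 1.46% of all probe sets. Endothelial markers summed to 12.20 to 12.62 against 11.75 to 12.17. In VE against wild type 0 of the 42 measured markers were called by limma (0.0991% of all probe sets). At an unadjusted p under 0.05 by limma were 17 of them (12.2% of all probe sets), 16 of these lower. Without VE array 2, 1 marker was called, Gfap (0.329%).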

How the data were processed

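Brain RNA of 9 samples, 3 per group, was measured on Clariom S mouse arrays. Deposited were log2 signals. The authors had normalized them by SST-RMA (robust multi-chip averaging with a signal space transformation), using version 4.0.2 of Transcriptome Analysis Console, according to the series' design text. Detection calls were not used here, so whether a dim probe set is above background is unknown. Symbols came from the platform annotation, and promoters from RefSeq on GRCm38.p6.

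Group means were fitted over the 9 arrays with limma 3.58.1 in R 4.3.3 (6 residual and 7.03 prior degrees of freedom), with no further normalization, and p was adjusted by Benjamini-Hochberg over 22206 probe sets. The scripts were tested on simulated data. The number of arrays limits the precision. The authors' rule, unadjusted p under 0.05 with a fold over 1.1 per the series' design text, was an alternative, as were quantile normalization, centring on array medians, removing the trend with level in 20 bins, a level filter, array weights, the 2 compared groups alone, the replicate number as a block, and leaving out each array. Quantile normalization or trend removal without VE array 2, and the isoenzyme pairs, were added after seeing the data. Summed marker levels are the log2 of summed linear signals, so the brightest genes of a list weigh most.

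The members and lists were chosen with earlier results of these data known. Values per array are given for every called member and the 5 members with the smallest p in each comparison. From each neighbouring list, called genes and up to 2 with the smallest p per comparison could be named. Other members were given with values where their role or pattern called for it. Some members, Gapdh and Ldha among them, have processed pseudogenes, and shared probes were not tested.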

Additional observations from a re-analysis of the deposited data

How the results depend on the processing

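Median changes kept their sign in ob/ob vehicle against wild type and in VE against wild type under every setting run. In VE against ob/ob vehicle the median was 0.02 and took either sign when single arrays were left out (-0.17 to 0.20).

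For ob/ob vehicle against wild type, 1 member and 281 probe sets (162 lower, 119 higher) were called, and the members' median was -0.41. Quantile normalization gave 0 members, 631 probe sets (250 lower, 381 higher) and a median of -0.11. Removing the trend with level gave 2 members, 772 probe sets (305 lower, 467 higher) and -0.12. Centring arrays on their medians, which moved the median of all probe sets by -0.07, gave 2 and 614 (448 lower, 166 higher). The authors' rule gave 7 and 4457, array weights 7 and 3601, and the 2 compared groups alone 5 and 2626. The level filter called 2 members. Leaving out VE array 2 as well, quantile normalization gave 3, 1970 (923 lower, 1047 higher) and -0.12, and trend removal 3, 2013 (917 lower, 1096 higher) and -0.13. Leaving out single arrays gave 0 to 6 members and 0 to 2975 probe sets, with medians of -0.52 to -0.30.

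For VE against ob/ob vehicle, 0 members and 108 probe sets (105 lower, 3 higher) were called. Probe sets numbered 324 with quantile normalization (264 lower, 60 higher), 71 with centring (62 lower, 9 higher), 351 with trend removal (294 lower, 57 higher), 180 with the level filter and 0 with the compared groups alone. They numbered, without VE array 2, 418 (301 lower, 117 higher) with quantile normalization and 431 (323 lower, 108 higher) with trend removal. The authors' rule gave 2 members and 2962 probe sets, and array weights 5 and 3307. Leaving out single arrays gave 0 members and 0 to 403 probe sets. Centring moved the median of all probe sets by 0.12 in this comparison.

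For VE against wild type, 0 members and 22 probe sets were called, with a median of -0.41. Probe sets numbered 0 with quantile normalization (median -0.022), with trend removal (-0.15) and with the compared groups alone, and 7 with centring. The authors' rule gave 7 members and 2707 probe sets, array weights 9 and 3286, and the level filter 1 and 49. With VE array 2 left out as well, the median was -0.055 with quantile normalization, and trend removal gave 1 member, 55 probe sets and -0.091. Leaving out single arrays gave 0 or 1 member and 0 to 158 probe sets, with medians of -0.57 to -0.21. The F test over 3 groups called 1 member, 0 with quantile normalization, 2 with trend removal without VE array 2, and 0 to 3 with an array left out.

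Whether replicate numbers pair the samples could not be settled. Over 9 pairs of same-numbered arrays, deviations from the group means correlated at -0.03 to 0.33, and 4 pairs were over 0.1. Arrays of different number were not compared in this way. With the replicate number as a block, limma called 3 members and 251 probe sets for ob/ob vehicle against wild type, 144 probe sets for VE against ob/ob vehicle and 2 for VE against wild type. The cause of these movements was not tested. Where single arrays were left out, the lower number of arrays is part of each setting. With 3 arrays per group and no detection calls, small changes and changes of dim genes such as Hk2, Pdk4 and Slc16a3 were hard to measure.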
